A study of Mus musculus with 57 samples.

Results

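The genes described here are 8 members of the Hedgehog signalling pathway, *Shh*, *Ihh*, *Ptch1*, *Smo*, *Gli1*, *Gli2*, *Gli3* and *Hhip*. They were chosen by name from the 56860 genes listed in the deposited tables, by no rule on their values but with earlier results of these data known. All 8 were found in every table. Their RNA was measured by bulk RNA-seq of polyA-selected RNA in 57 libraries from mouse embryos kept in the 129/Sv background, in 7 combinations of tissue and stage, called contexts. Wild-type (wt) embryos were set against *Hoxa5*-/- embryos, which carry the null allele with a *neomycin* cassette in the homeobox of *Hoxa5*. The contexts were lung at E12.5 and E15.5 (embryonic days), trachea and diaphragm at E15.5, somite segments at E10.5 and again at E12.5, and at E18.5 the brown fat between the shoulder blades (iBAT). The groups held 4 libraries each, except 3 for *Hoxa5*-/- somites at E10.5 and 5 for each genotype of iBAT. The somite samples are trunk segments C3 to T2 freed by dissection from neural tube, forelimbs and thoracic organs, so they hold every tissue of those segments that was left. The study speaks of as many wt embryos per context as there are wt libraries, the labels do not say how tissue was divided among libraries, and p-values measure the spread between these libraries.

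Hedgehog proteins are secreted ligands. In tissues without ligand, the receptor PTCH1 holds the membrane protein SMO inactive, and the GLI proteins, GLI3 above all, act mainly as repressors. Ligand binding to PTCH1 frees SMO, GLI2 and GLI3 are then turned towards activation, and *Gli1*, *Ptch1* and *Hhip* are transcribed as targets, of which *Ptch1* and *Hhip* code for proteins that bind the ligand and limit its spread. In the embryonic lung and trachea SHH comes from the epithelium and is read by the surrounding mesenchyme, in the trunk it comes from notochord and floor plate, and IHH is known from maturing chondrocytes and from gut.

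Libraries of lung, trachea and diaphragm (32, single-end reads of 100 bases) and libraries of somites and iBAT (25, paired-end reads of 150 bases) were sequenced at different centres, so groups were tested only within each of these sets, and levels set across them carry that difference. Totals ran from 18369905 to 72991481 counts per library. *Hoxa5*, counted over exons that the null allele keeps in part, was lower in every *Hoxa5*-/- library than in every wt library of the same context, as the genotype labels state, for example at 67.2 to 74.9 against 233 to 304 TPM (a share of transcripts that corrects for exon length and library size) in lung at E12.5. Markers of the labelled tissues were present, with summed TPM of 4597 or more for skeletal muscle in diaphragm, 1667 or more for lung epithelium in lung at E15.5 and 6483 or more for brown fat in iBAT. Diaphragm libraries differed among themselves in RNA of other tissues, with summed hepatocyte markers (*Alb*, *Afp*, *Apoa1*, *Ttr*) from 344 to 10440 TPM, and these values are given beside the results they touch.

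On GRCm39, the build of the deposited files, the ligand genes are *Shh* (ENSMUSG00000002633.5) on the minus strand of chromosome 5 from 28661813 to 28672254 and *Ihh* (ENSMUSG00000006538.13) on the minus strand of chromosome 1 from 74984474 to 74990831. The receptor genes are *Ptch1* (ENSMUSG00000021466.13), chromosome 13, 63656142 to 63721412, minus strand, and *Smo* (ENSMUSG00000001761.8), chromosome 6, 29735502 to 29761364, plus strand. The transcription factor genes are *Gli1* (ENSMUSG00000025407.8), chromosome 10, 127165751 to 127177843, minus strand, *Gli2* (ENSMUSG00000048402.15), chromosome 1, 118761862 to 118981349, minus strand, and *Gli3* (ENSMUSG00000021318.16), chromosome 13, 15637820 to 15904611, plus strand. *Hhip* (ENSMUSG00000064325.5), the gene of the Hedgehog-interacting protein, lies on the minus strand of chromosome 8 from 80692480 to 80784635. Counts are of reads on exons, whose summed length per gene runs from 2847 bases for *Shh* to 14185 for *Ptch1*, and TPM divides by that length.

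The RefSeq promoter table of GRCm38.p6 (windows of 300 bases, 50 of them after the start) holds *Ihh*, *Ptch1*, *Smo*, *Gli2*, *Gli3* and *Hhip*, whereas *Shh* and *Gli1* are named only. Sequence before the start is shown for the member whose level followed *Shh* most closely over the respiratory libraries (*Hhip*, r = 0.972) and for the ligand that did not (*Ihh*, r = -0.262), with CpG dinucleotides in capitals. Each run is 220 bases outside annotated exons, read 5′ to 3′ on the minus strand, matched to GRCm39 at chr8:80784668-80784887 for *Hhip* and chr1:74990862-74991081 for *Ihh*.
Hhip: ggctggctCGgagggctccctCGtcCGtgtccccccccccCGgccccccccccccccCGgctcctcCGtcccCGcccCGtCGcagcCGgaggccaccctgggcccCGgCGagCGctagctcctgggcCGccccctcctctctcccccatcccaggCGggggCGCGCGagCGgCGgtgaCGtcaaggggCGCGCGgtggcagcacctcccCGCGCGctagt
Ihh: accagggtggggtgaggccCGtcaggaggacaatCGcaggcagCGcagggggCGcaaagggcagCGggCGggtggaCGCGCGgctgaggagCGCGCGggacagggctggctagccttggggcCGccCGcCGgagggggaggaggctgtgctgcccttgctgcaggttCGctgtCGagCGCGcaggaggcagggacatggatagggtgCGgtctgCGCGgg
These runs hold 27 and 22 CpG. Over the whole windows *Hhip* and *Ihh* hold 30 each, *Ptch1* 47, *Gli3* 39, *Gli2* 28 and *Smo* 17, against a median of 7 over all 32851 promoters. The GLI binding motif GACCACCCA, read on either strand, is in 83 of the 32851 windows (0.253%) and in 0 of the 6 members' windows, which says only that these letters are not in these windows.

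In wt libraries the level of *Shh* differed most between the contexts of each set, and that of *Smo* least. *Shh* was highest in lung at E15.5 (81.6 ± 11.03 TPM, SD, n = 4), followed by lung at E12.5 (39.1 ± 4.81) and trachea (30.1 ± 4.67), whose libraries overlapped, and by diaphragm (3.67 ± 4.28), which lay below all of them. In the other set it was at 22.6 ± 5.71 TPM in somites at E10.5, 1.86 ± 1.25 TPM at E12.5 and without a count in the 5 wt iBAT libraries. *Ihh* ran the other way in somites, with 0.408 ± 0.144 TPM at E10.5 and 7.26 ± 2.31 TPM at E12.5, which was its highest level. It was low elsewhere, with 1.09 ± 0.452 TPM in trachea, 0.882 ± 0.771 TPM in diaphragm, 0.271 ± 0.0608 TPM in lung at E12.5 and 0.191 ± 0.0537 TPM at E15.5, and each of these neighbours overlapped in its libraries.

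*Smo*, the transducer, was the most abundant member on the TPM scale in each wt context, with means of 186 ± 6.13 TPM in lung at E12.5, 163 ± 16.3 at E15.5, 145 ± 14.7 in trachea and 99.7 ± 10.4 in diaphragm, and of 124 ± 22.1 in somites at E10.5, 167 ± 4.10 at E12.5 and 19.02 ± 1.96 in iBAT. *Ptch1*, receptor and target, was equal within its spread in lung at both stages (117 ± 19.7 and 114 ± 14.9 TPM), lower without overlap in trachea (37.5 ± 5.42) and lower again in diaphragm (16.3 ± 7.13). *Gli1*, which is transcribed where the pathway is on, was at 110 ± 11.4 TPM in lung at E12.5, 90.5 ± 15.2 in trachea and 87.0 ± 24.3 in lung at E15.5, 3 groups that overlapped, and at 16.4 ± 5.53 in diaphragm. *Hhip* was at 81.7 ± 7.21 TPM in lung at E15.5, 61.5 ± 2.73 in trachea, 38.7 ± 3.62 in lung at E12.5 and 5.37 ± 3.39 in diaphragm, with no overlap between neighbours. Between lung and diaphragm *Gli2* and *Gli3* differed less than these targets, with *Gli2* at 34.5 ± 6.24 against 25.1 ± 2.83 TPM and *Gli3* at 43.5 ± 6.26 against 24.8 ± 4.01 TPM at E15.5. On TMM-normalized CPM in place of TPM, the order of contexts stayed the same for 6 of 8 members in the respiratory set and for 8 of 8 in the other, and the exceptions were swaps between neighbours, diaphragm with trachea for *Ihh* and lung at E15.5 with trachea for *Gli1*.

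**Figure D1:**
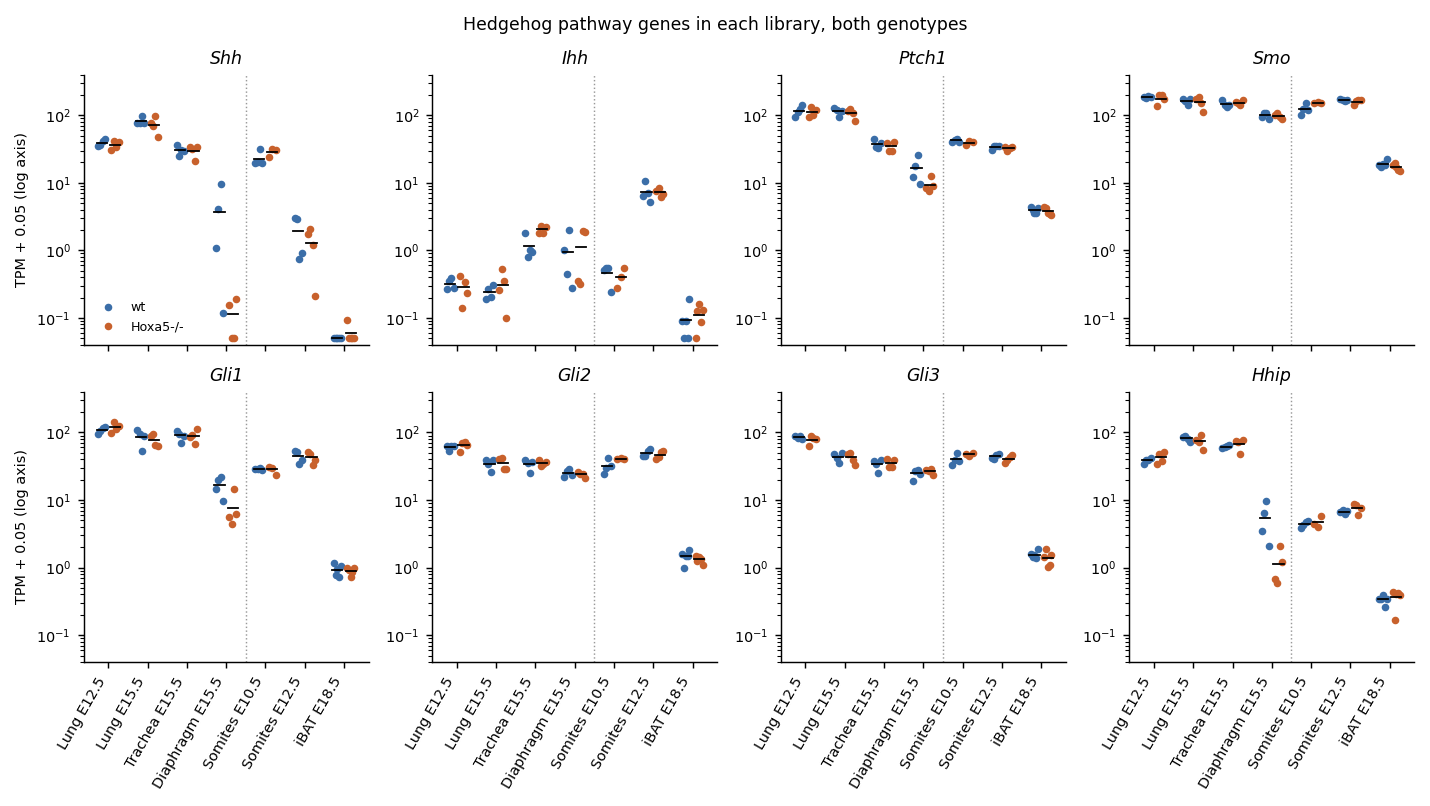
TPM of each of the 8 genes in every library (points, TPM + 0.05 on a log axis), with wt in blue, Hoxa5-/- in orange and a bar at the group mean; the dotted line parts the 2 separately sequenced sets. The genotypes overlap in every panel except Hhip in diaphragm and Ihh in trachea, while Shh, Gli1 and Hhip drop from lung and trachea to diaphragm and the wt mean of each of the 8 genes is lowest in iBAT.

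From E12.5 to E15.5 the wt lung gained ligand and the antagonist *Hhip* and lost *Gli2* and *Gli3*, while *Ptch1* and *Gli1* did not pass the test. *Shh* was at 34.5, 35.9, 41.2 and 44.9 TPM in the 4 libraries at E12.5 and at 76.9, 76.1, 98.2 and 75.4 TPM at E15.5. *Hhip* was at 33.8, 39.0, 39.5 and 42.5 TPM at E12.5 and at 85.1, 88.7, 80.8 and 72.0 TPM at E15.5. In both genes the stages did not overlap, and log2 fold changes, where 1 stands for a doubling, were 1.03 ± 0.11 (SE) for *Shh* (adjusted p = 3.06e-05, edgeR) and 1.04 ± 0.08 for *Hhip* (adjusted p = 4.82e-06). In bulk samples a change in the share of cells that make an RNA and a change in the RNA per cell cannot be told apart. Summed epithelial markers (*Epcam*, *Cdh1* and 6 others) rose alongside, from between 582 and 652 TPM to between 1309 and 1834 TPM, and their part in the rise of *Shh* and *Hhip* was not tested.

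The GLI genes that carry the repressor forms fell in the same wt lungs. *Gli3* was at 87.3, 81.8, 88.2 and 81.4 TPM at E12.5 and at 47.9, 41.3, 35.7 and 49.1 TPM at E15.5 (log2 fold change -0.997 ± 0.09, adjusted p = 1.42e-05). *Gli2* went from between 53.4 and 64.1 TPM to between 26.02 and 39.5 TPM (log2 fold change -0.85 ± 0.12, adjusted p = 0.000194). *Ptch1* (log2 fold change -0.07 ± 0.12, adjusted p = 0.635) and *Gli1* (-0.37 ± 0.18, adjusted p = 0.112) were not called, and *Smo* passed the adjusted p but not the 1.5-fold limit (-0.22 ± 0.07, adjusted p = 0.0201). So 4 of 7 tested members were called, 2 higher and 2 lower, where 24.6% of the 18158 genes tested were called, 15.4% higher and 9.15% lower. Leaving out any 1 of the 8 libraries left 4 members called.

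Among the 22 other pathway genes, 21 were tested in this lung comparison and 1 was called higher and 6 lower. *Scube2*, which helps to release lipid-bearing ligand, rose (log2 fold change 3.26 ± 0.31), while the coreceptor genes *Gas1* (-1.78 ± 0.08) and *Gpc3* (-0.68 ± 0.06) and the secreted *Scube3* (-1.99 ± 0.22) fell. The median over the 21 was -0.44, against -0.01 over all genes. Of 15 genes known to respond to Hedgehog signalling, 12 were tested, 3 were called higher and 4 lower. The mesenchymal forkhead gene *Foxf2* (1.05 ± 0.11) and *Bmp4* (0.62 ± 0.07) rose, and *Sfrp1* (-2.46 ± 0.17), a secreted Wnt antagonist, and the cyclin gene *Ccnd2* (-0.94 ± 0.10) fell, so the list did not move one way.

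Trachea and lung at E15.5 differed in ligands and in *Ptch1*, not detectably in *Gli1* or *Gli2*. *Shh* was at 36.0, 24.6, 30.3 and 29.6 TPM in wt trachea, below every lung library (log2 fold change of trachea over lung -1.47 ± 0.13, adjusted p = 2.08e-05). *Ptch1* was at 44.6, 34.4, 32.4 and 38.7 TPM in trachea and at 127, 121, 92.5 and 115 TPM in lung (-1.64 ± 0.12, adjusted p = 9.91e-06). *Gli1*, another target, was at 106, 96.0, 70.3 and 89.6 TPM in trachea and at 110, 96.6, 53.3 and 87.7 TPM in lung, which overlapped fully (0.02 ± 0.21, adjusted p = 0.942). *Hhip* passed the adjusted p with a change under 1.5-fold (-0.44 ± 0.07, adjusted p = 0.000967).

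*Ihh* was higher in trachea than in lung (2.46 ± 0.36, adjusted p = 0.000484), at 1.76, 0.759, 0.966 and 0.880 TPM from 16 to 35 counts against 0.138 to 0.255 TPM from 4 to 7 counts. It passed the TPM minimum through trachea alone, and without the trachea library of 1.76 TPM it was no longer tested. Summed cartilage markers (*Col2a1*, *Acan* and 4 others) were at 1201 to 1702 TPM in wt trachea and 128 to 179 TPM in wt lung, and their part in the difference of *Ihh* was not tested. In all, 3 of 8 members were called (1 higher, 2 lower), where 30.2% of 19340 genes were, 20.1% higher and 10.1% lower. With the replicate numbers as a block, 3 were called as well.

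Of the 22 other pathway genes, 9 were called higher in trachea and 2 lower, among them the coreceptors *Cdon* (2.08 ± 0.08), *Gas1* (2.21 ± 0.12) and *Gpc3* (1.04 ± 0.08) and the secreted *Scube1* (2.96 ± 0.21), all higher in trachea. Of the 15 responding genes, 5 were higher and 5 lower. *Foxf2* (-3.36 ± 0.15), *Tbx2* (-1.77 ± 0.11) and *Bmp4* (-0.95 ± 0.07) were lower in trachea, and *Sfrp1* (2.74 ± 0.20) was higher.

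Wt diaphragm, a muscle with no epithelium of its own apart from its mesothelial cover, held the lowest *Shh*, *Ptch1*, *Gli1* and *Hhip* of the respiratory set. Over lung at E15.5, log2 fold changes were -4.20 ± 0.77 for *Shh* (adjusted p = 0.00119), -3.64 ± 0.39 for *Hhip* (4.77e-05), -2.51 ± 0.26 for *Ptch1* (3.88e-05) and -2.11 ± 0.27 for *Gli1* (0.000147), all by edgeR. *Smo* (-0.41 ± 0.08, adjusted p = 0.00189) and *Gli3* (-0.51 ± 0.12, adjusted p = 0.00495) passed the adjusted p below the 1.5-fold limit, and *Gli2* did not pass (-0.15 ± 0.12, adjusted p = 0.309). Thus 4 of 7 tested members were called, and these 4 were lower, where 15.6% of 18984 genes were called lower. *Ihh* was not tested because it was under 1 TPM in both groups. With no filter on low values it was called higher in diaphragm (2.43 ± 0.59, adjusted p = 0.00472), in a fit whose share of all genes called is not given here. Without diaphragm library 2 (2.72, adjusted p = 0.00773) or 4 (2.81, 0.00284) its mean passed the minimum through diaphragm alone. Only a higher value could then be found, so these 2 fits add no support. They called 6743 of 18990 and 6602 of 19000 genes in either direction. Wt diaphragm library 3 held the most *Ihh* of its group (1.94 TPM), with 8480 TPM of summed hepatocyte markers. Without wt diaphragm library 3 the value of *Shh* became -5.29.

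Over trachea the same 4 genes were lower in diaphragm, and 18.4% of 19730 genes were. *Hhip* differed by -3.24 ± 0.40 (adjusted p = 0.000194), *Gli1* by -2.18 ± 0.23 (9.19e-05) and *Ptch1* by -0.92 ± 0.26 (0.0156) on the log2 scale. *Shh* differed by -2.77 ± 0.86 (adjusted p = 0.0249), and its call was lost without trachea library 1 (adjusted p = 0.0517), diaphragm library 1 (0.0624) or diaphragm library 2 (0.0577), while without diaphragm library 3 it was -3.82 (0.00511). The comparisons with lung and with trachea share the diaphragm libraries. Without diaphragm libraries 2 and 3, left out together in an alternative chosen after seeing the data, since they hold the most *Shh* and epithelial markers, *Shh* was at -7.10 ± 0.49 over lung and -5.53 ± 0.73 over trachea and *Hhip* at -4.56 ± 0.21 and -4.10 ± 0.23, and a larger difference follows in part from that choice.

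Over lung, 9 of 22 other pathway genes were called higher in diaphragm and 1 lower, with the coreceptors *Gas1* (3.52 ± 0.10) and *Cdon* (2.38 ± 0.09), the ligand-release gene *Disp1* (1.18 ± 0.10) and the kinase gene *Prkaca* (2.36 ± 0.16) among those higher. Of 14 responding genes tested, 10 were lower, such as *Tbx2* (-2.36 ± 0.23) and *Bmp4* (-0.89 ± 0.10), and 3 were higher, such as *Pax1* (6.64 ± 0.43) and *Sfrp1* (2.61 ± 0.19). The median was 0.25 over the pathway genes and -1.25 over the responding genes, against -0.01 over all genes. With 1 library left out in turn, 6599 of 19010 to 7143 of 19017 genes were called, higher and lower together. With all libraries, 15.6% of 18984 genes were called lower. The share called higher is not given here, so the counts of genes higher have no share to be set against. Over trachea, the pathway genes divided into 4 higher, such as *Gas1* (1.27 ± 0.13) and *Prkaca* (2.42 ± 0.16), and 6 lower, such as *Boc* (-1.18 ± 0.08), *Scube3* (-2.08 ± 0.17), *Scube1* (-1.71 ± 0.18) and *Stk36* (-1.53 ± 0.20). The responding genes divided into 2 higher and 6 lower, with the cyclin genes *Ccnd2* (-1.54 ± 0.10) and *Ccnd1* (-1.69 ± 0.21) lower. Over trachea, fits with 1 library left out called 5896 of 19766 to 6359 of 19714 genes in either direction. With all libraries, 18.4% of 19730 genes were called lower, and here too the share called higher is not given.

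**Figure D2:**
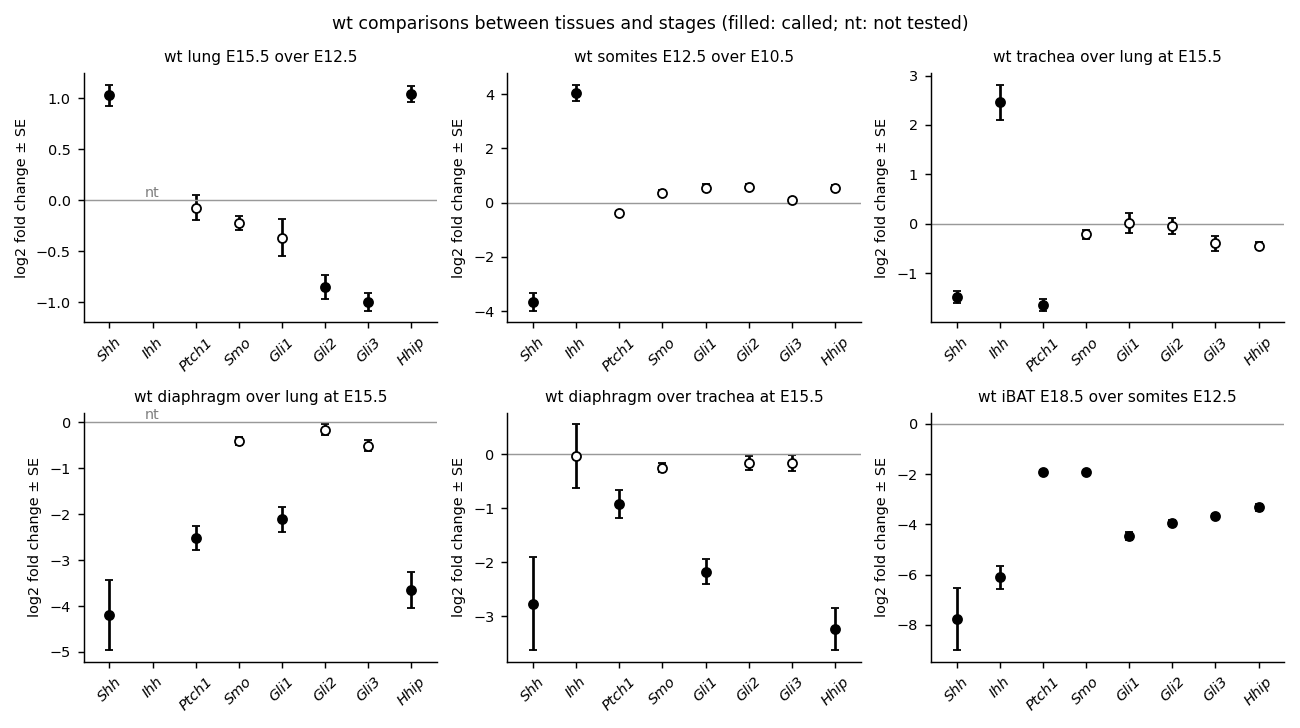
Log2 fold change ± SE of the 8 genes in 6 comparisons of wt libraries; filled points passed an adjusted p under 0.05 and 1.5-fold, open points did not, and nt marks a gene under 1 TPM in both groups. Shh and Hhip rise together in lung, Shh and Ihh part in somites, and in iBAT all 8 lie below somites.

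In wt somites *Shh* fell and *Ihh* rose between E10.5 and E12.5. *Shh* was at 19.6, 20.4, 31.2 and 19.3 TPM at E10.5 and at 2.98, 2.89, 0.696 and 0.863 TPM at E12.5 (log2 fold change -3.65 ± 0.34, adjusted p = 6.00e-07). *Ihh* was at 0.454, 0.495, 0.491 and 0.194 TPM at E10.5 and at 6.34, 10.54, 6.97 and 5.20 TPM at E12.5 (4.05 ± 0.30, adjusted p = 7.15e-08). Neither gene overlapped between the stages. These were the 2 members called of 8, where 42.6% of 19773 genes were called. *Ihh* passed the TPM minimum through E12.5 alone, so in TPM it could only be higher there.

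Targets and transducers moved little beside the ligands. *Gli1* (0.56 ± 0.12, adjusted p = 0.00136), *Gli2* (0.58 ± 0.12, 0.000917), *Hhip* (0.55 ± 0.10, 0.000382) and *Smo* (0.37 ± 0.09, 0.00308) were higher at E12.5 and *Ptch1* lower (-0.38 ± 0.08, 0.000587), each past the adjusted p and under 1.5-fold, and *Gli3* did not pass (0.09 ± 0.10, 0.425). Without the fold limit 7 members would be called. *Smo*, with the largest adjusted p of these, ranked 8957 by p among 19773 genes, so at least 8957 genes pass that rule. *Gli1*, *Gli2* or *Hhip* crossed the limit when single libraries were left out, in fits that called from 8154 of 19843 to 8746 of 19805 genes. With the replicate numbers as a block 3 members were called, and the share of all genes called with that block is not given here.

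Markers of other tissues in the somite segments moved with both ligands. All 6 neural tube markers fell, among them *Olig2* (-8.02) and *Pax6* (-6.90), and their summed level went from between 641 and 1074 TPM to between 134 and 361 TPM. Of the floor plate and notochord markers, *Foxa2* (-2.73), *T* (-1.77), *Nkx2-9* (-7.17) and *Ntn1* (-0.62) fell and *Chrd* (1.71) rose, while *Noto* (0.0427 TPM at both stages) was too low to test. All 5 markers of hypertrophic cartilage and bone rose, among them *Ibsp* (9.74), *Col10a1* (6.06) and *Runx2* (3.39), and their summed level went from between 9.42 and 13.3 TPM to between 175 and 218 TPM. Their part in the changes of *Shh* and *Ihh* was not tested.

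**Figure D3:**
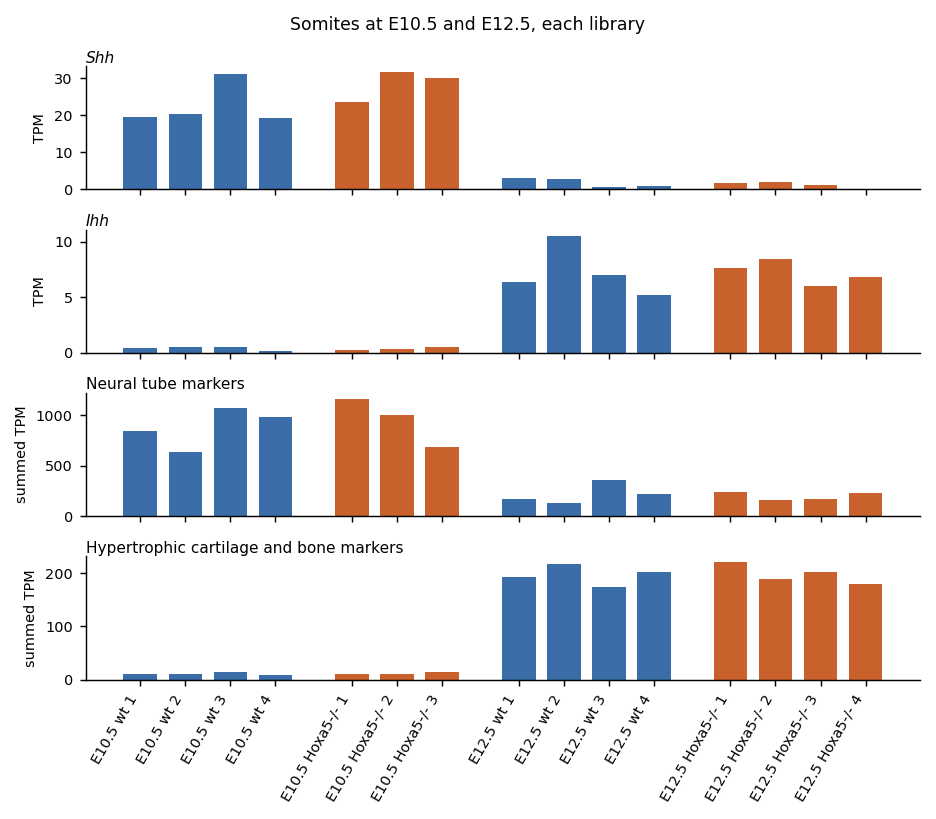
TPM of Shh and Ihh and summed TPM of neural tube markers and of hypertrophic cartilage and bone markers in each somite library (bars, wt blue, Hoxa5-/- orange, all axes from 0). Shh and the neural markers are high in the 7 libraries of E10.5, and Ihh and the cartilage and bone markers in the 8 of E12.5.

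Of the 22 other pathway genes, 9 were called higher at E12.5 and 2 lower, with *Gpc3* (1.22 ± 0.09), *Cdon* (1.15 ± 0.11) and the cilium gene *Evc2* (0.83 ± 0.08) higher. Of the 15 responding genes, 7 were higher and 3 lower. *Pthlh* (3.46 ± 0.28), the partner of *Ihh* in the growth plate, *Tbx2* (2.02 ± 0.11), *Bcl2* (1.40 ± 0.12) and *Sfrp1* (0.87 ± 0.08) rose, and *Mycn* (-1.46 ± 0.11) fell. Medians were 0.34 and 0.29, against -0.04 over all genes.

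All 8 members were lower in wt iBAT at E18.5 than in wt somites at E12.5, where 35.3% of 19369 genes were called lower and the median over all genes was -0.16. *Shh*, *Ihh*, *Hhip* and *Gli1* were under 1 TPM on average in wt iBAT and passed the TPM minimum through somites alone. In TPM these 4 could only be lower. *Smo* (-1.93 ± 0.06) and *Ptch1* (-1.92 ± 0.08) differed least, followed by *Hhip* (-3.32 ± 0.15), *Gli3* (-3.67 ± 0.09), *Gli2* (-3.94 ± 0.12), *Gli1* (-4.45 ± 0.16) and *Ihh* (-6.11 ± 0.45), with adjusted p of 5.84e-09 or less for these 7. Without iBAT library 5, which held 3 of the 5 counts of *Ihh*, its value was -6.96. *Shh* had 0 counts in the 5 libraries. A floor of 3 counts over that group is 0.0381 TMM-normalized CPM, so it was at least 31.7-fold lower than in somites (1.21 CPM), and the fitted value gives no bound. In the 5 wt iBAT libraries *Smo* was at 17.4 to 22.4 TPM, *Ptch1* at 3.48 to 4.26 TPM and *Gli1* at 0.668 to 1.10 TPM. Of the other pathway genes tested, 17 of 21 were lower, such as *Scube1* (-7.57), *Boc* (-3.32) and *Gas1* (-2.79), and *Prkaca* alone was higher (1.66). All 15 responding genes were lower, *Pax1* (-9.50) among them. Between the genotypes of iBAT, 7 of these 15 and 15 of the 22 pathway genes reached the TPM minimum. The others tested here passed it through somites alone. Tissue and stage differ together here and cannot be told apart.

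The loss of *Hoxa5* was tested within each context. No member was called by edgeR in any of the 7 contexts. In lung at E12.5 the 7 tested members had log2 fold changes of *Hoxa5*-/- over wt between -0.11 and 0.16, with SE between 0.06 and 0.11, where 0.0798% of 17548 genes were called. In lung at E15.5 they lay between -0.09 and 0.12, with SE between 0.09 and 0.21, where 0.124% of 17777 genes were called. None of these 14 values had an unadjusted p under 0.05, and DESeq2 called 0 of them and 0.462% and 0.467% of all genes tested. *Ihh* was under 1 TPM in both genotypes of both lung stages and was not tested.

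In *Hoxa5*-/- lung at E15.5 library 4 held the lowest *Shh* of its group in TPM (47.0 against 69.2 to 97.2 in the others), and the lowest *Ptch1* (83.4 against 108 to 123). The size of this gap depended on the scale. On TMM-normalized CPM, which the tests use, *Shh* was at 48.1 in library 4 and at 49.6 to 69.7 in the others, and *Ptch1* at 426 lay within the others (386 to 438). In the study's read statistics this library had the lowest shares of mapped and of assigned reads among lung libraries at E15.5. Its summed epithelial markers were at 798 TPM, against 1213 to 1759 TPM in the other *Hoxa5*-/- libraries. The part of either in the gap was not tested.

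In trachea, *Ihh* was the member with the largest genotype difference. It was at 1.76, 2.26, 1.78 and 2.16 TPM in *Hoxa5*-/- and at 1.76, 0.759, 0.966 and 0.880 TPM in wt libraries, so the groups did not overlap but touched at the highest wt library, and counts were from 34 to 54 and from 16 to 35. The log2 fold change was 0.87 ± 0.27 with an unadjusted p of 0.0116 and an adjusted p of 0.682 (edgeR). Of the 19220 genes tested in trachea, 2.08% were higher in the mutant without overlap and 0.0156% were called. With each library left out in turn the value ran from 0.73 to 1.17. The other 7 members lay between -0.13 and 0.13. Summed cartilage markers were at 1201 to 1702 TPM in wt and at 962 to 4155 TPM in *Hoxa5*-/- trachea, and their part in the difference of *Ihh* was not tested.

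**Figure D4:**
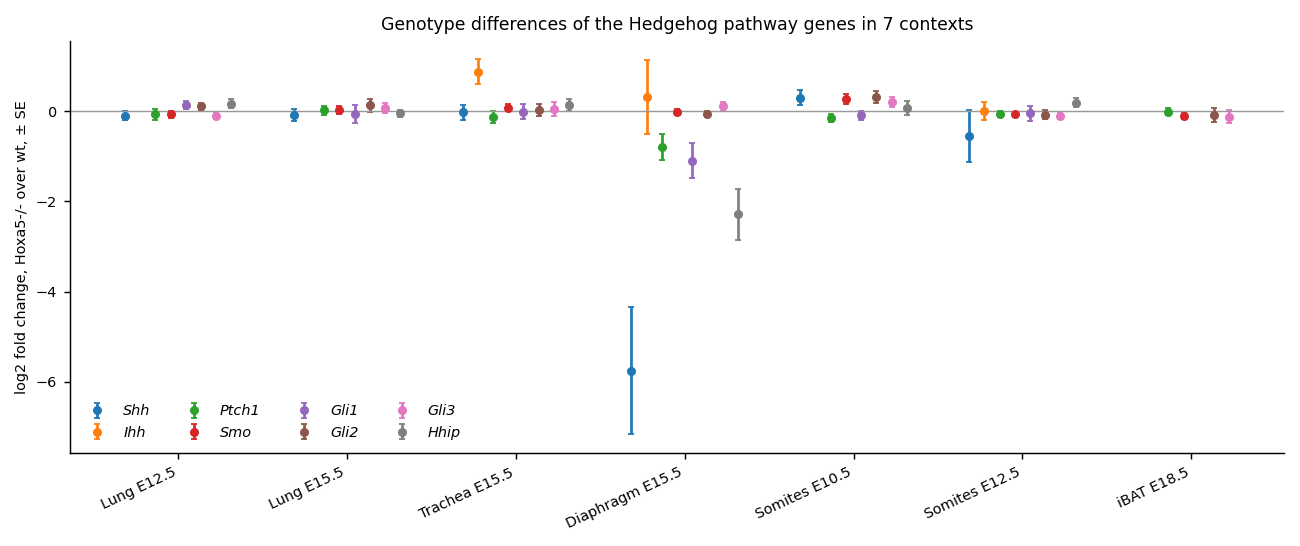
Log2 fold change of Hoxa5-/- over wt ± SE for each tested gene in the 7 contexts. Values lie between -0.56 and 0.31 except Ihh in trachea (0.87) and Shh (-5.75), Hhip (-2.29), Gli1 (-1.10) and Ptch1 (-0.80) in diaphragm, none of which was called by edgeR.

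In diaphragm the means of *Shh* and of its targets were lower in *Hoxa5*-/- than in wt libraries, and none passed the adjusted p. *Shh* was at 1.03, 4.02, 9.58 and 0.0697 TPM in wt (19, 94, 217 and 2 counts) and at 0.107, 0, 0 and 0.143 TPM in *Hoxa5*-/- libraries (3, 0, 0 and 5 counts). The wt libraries spread widely, and wt library 4 lay among the mutants. *Shh* passed the TPM minimum through the wt group alone, so in TPM its mutant mean could only be lower. *Hhip* was at 3.40, 6.32, 9.71 and 2.07 TPM in wt and at 0.624, 0.548, 2.02 and 1.15 TPM in *Hoxa5*-/- libraries, with no overlap but with the closest libraries at 2.07 and 2.02. *Ptch1* was at 12.1, 17.8, 25.6 and 9.55 TPM in wt and 8.19, 7.38, 12.6 and 8.996 TPM in *Hoxa5*-/- libraries, and *Gli1* at 14.4, 19.6, 22.1 and 9.65 TPM and 5.57, 4.39, 14.6 and 6.11 TPM, both with overlap.

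Log2 fold changes were -5.75 ± 1.40 for *Shh* (unadjusted p = 0.00286, adjusted p = 0.126), -2.29 ± 0.56 for *Hhip* (0.00281 and 0.125), -1.10 ± 0.40 for *Gli1* (0.0227 and 0.285) and -0.80 ± 0.29 for *Ptch1* (0.0229 and 0.286), by edgeR. Of 18019 genes tested in diaphragm, 0.594% were called, and 4.62% were lower in the mutant without overlap as *Hhip* was. *Smo* (-0.03 ± 0.07), *Gli2* (-0.07 ± 0.07) and *Gli3* (0.10 ± 0.10) had small differences with small errors, and *Ihh* a large error (0.31 ± 0.82). The calls depended on the test. DESeq2, which called 2.25% of all genes tested, called *Shh* (adjusted p = 0.0124) and *Hhip* (0.00948), a fit sharing its spread over all 32 libraries (1.88% of all genes) called all 4, the replicate block (1.99%) called *Hhip* (0.0303), and edgeR without wt library 4 (0.769%) called *Shh* (0.045). Each of these fits also called more of all genes than the 0.594% above.

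RNA of neighbouring tissues differed between the same libraries. Summed epithelial markers were at 82.7, 112, 263 and 33.0 TPM in the wt libraries, in the order in which *Shh* is given, and at 33.4, 21.7, 108.7 and 81.0 TPM in *Hoxa5*-/- libraries. Of the 8 epithelial markers, 8 reached a mean of 1 TPM in wt and 4 in *Hoxa5*-/- libraries, 2 of them staying under 0.1 TPM there. Markers of airway and foregut epithelium (*Sox2*, *Krt5*, *Trp63*, *Krt15*) were at 203, 360, 12.3 and 15.6 TPM in wt and at 7.32 to 15.01 TPM in *Hoxa5*-/- libraries. Markers of lung epithelium (*Nkx2-1*, *Sftpc*, *Sftpb*, *Etv5*) reached 492 TPM in wt library 3 and were at 52.3 to 74.2 TPM in the other 7 libraries. *Hoxa5*-/- libraries 3 and 4, with 108.7 and 81.0 TPM of epithelial markers, held 0 and 5 counts of *Shh*, where wt library 1, with 82.7 TPM, held 19. They were not matched in kind of epithelium, with airway and foregut markers at 203 TPM in wt library 1 and at 15.01 TPM or less in *Hoxa5*-/- libraries. Neural markers differed too, at 8.27 to 22.8 TPM in wt and 1.49 to 2.67 TPM in *Hoxa5*-/- libraries. The wt order of *Shh*, *Hhip*, *Ptch1* and *Gli1* was the order of the epithelial sum, highest in library 3 and lowest in library 4, and the part of this RNA in the genotype difference was not tested.

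Without wt libraries 2 and 3, *Hhip* was at -1.37 ± 0.53 (adjusted p = 0.269), *Gli1* at -0.70 ± 0.48 (0.472) and *Ptch1* at -0.27 ± 0.23 (0.559). *Shh* then fell under 1 TPM in both genotypes and was not tested. These 2 libraries were left out because they held the most *Shh* and epithelial markers, so a smaller difference follows in part from their choice.

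**Figure D5:**
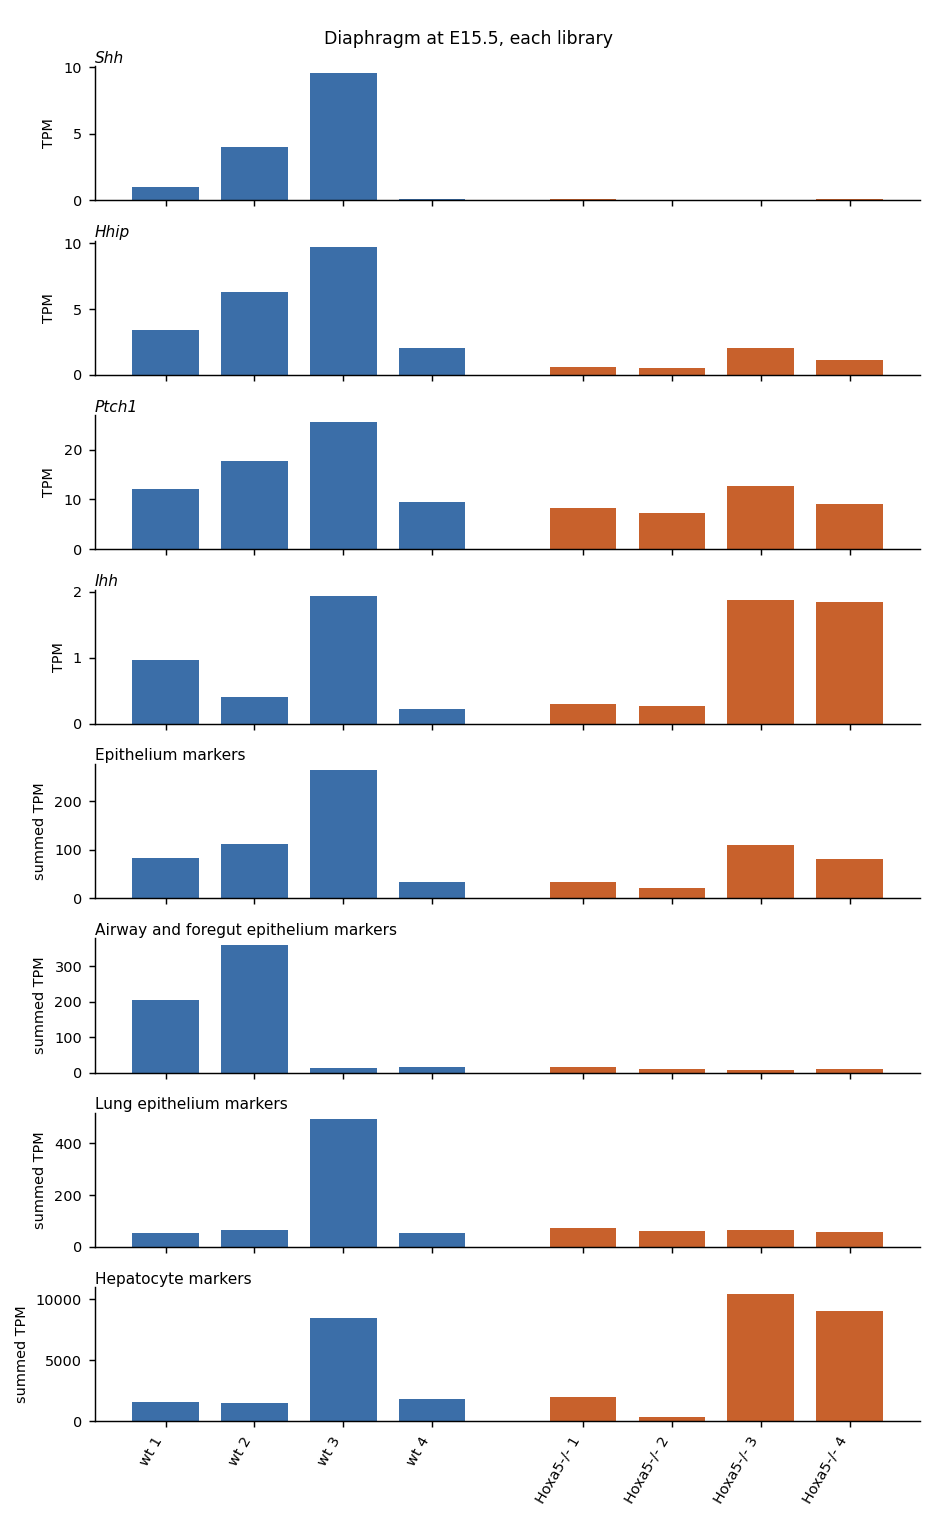
TPM of Shh, Hhip, Ptch1 and Ihh and summed TPM of 4 marker lists in the 8 diaphragm libraries (bars, wt blue, Hoxa5-/- orange, all axes from 0). Shh, Hhip and Ptch1 are highest in wt library 3, which also has the most epithelial and lung epithelial markers, and Ihh is high in the 3 libraries with 8480 TPM or more of hepatocyte markers.

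*Ihh* in diaphragm was high in 3 libraries. It was at 1.94 TPM in wt library 3 and at 1.87 and 1.84 TPM in *Hoxa5*-/- libraries 3 and 4, whose hepatocyte sums were 8480, 10440 and 8995 TPM. The other 5 libraries held 0.228 to 0.962 TPM of *Ihh* with hepatocyte sums of 344 to 2032 TPM. Genotype did not order these values, and the part of liver RNA in them was not tested.

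Of the pathway and responding genes, *Foxf2* was the one called between genotypes in any context. This forkhead gene of mesenchyme next to epithelium was at 5.03, 10.2, 18.9 and 2.48 TPM in wt and 0.300, 0.0638, 0.132 and 0.482 TPM in *Hoxa5*-/- diaphragm (log2 fold change -5.17 ± 0.77, adjusted p = 0.0263, edgeR). Its wt order was again that of *Shh*, and like *Shh* it passed the TPM minimum through the wt group alone. The call of *Foxf2* was lost when any 1 of 6 of the 8 libraries was left out, with adjusted p from 0.0579 to 0.111, and held without wt library 3 or 4, and without wt libraries 2 and 3 it was -3.94 ± 0.61 (adjusted p = 0.0682). The 14 responding genes tested had a median of -0.32 and the 22 other pathway genes one of -0.04, against 0.00485 over all genes. DESeq2 called 5 and 3 of them. Of all 18019 genes tested in diaphragm, DESeq2 called 2.25% and edgeR 0.594%.

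In somites at E10.5, *Gli2* (log2 fold change 0.31 ± 0.13, unadjusted p = 0.0345) and *Smo* (0.26 ± 0.10, 0.0305) were higher in *Hoxa5*-/- libraries with an adjusted p of 0.391 each, where 0.0215% of 18573 genes were called. *Smo* was at 150, 156 and 154 TPM in *Hoxa5*-/- and at 99.7, 124, 153 and 120 TPM in wt libraries, and *Gli2* at 40.3, 41.4 and 41.1 TPM and at 24.1, 29.97, 42.5 and 31.9 TPM. Wt library 3 lay with the mutants in both genes, and in *Gli3* and *Shh* as well. *Shh* was at 23.8, 31.7 and 30.2 TPM in *Hoxa5*-/- libraries (0.30 ± 0.17, adjusted p = 0.422). Without wt library 3, 2.07% of 18664 genes were called, a share that counts the 1.5-fold limit. *Gli2* (0.45, adjusted p = 0.0178), *Smo* (0.35, 0.0282), *Gli3* (0.30, 0.0288) and *Shh* (0.46, 0.0436) then passed the adjusted p but not the 1.5-fold limit.

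In somites at E12.5 no member had an unadjusted p under 0.05, where 0.00529% of 18906 genes were called. *Shh* was at 1.71, 1.99, 1.14 and 0.158 TPM in *Hoxa5*-/- libraries, from 35, 41, 22 and 3 counts (-0.56 ± 0.58, adjusted p = 0.999), and *Ihh* was at 7.63, 8.42, 6.01 and 6.83 TPM (-0.01 ± 0.20). In iBAT the 4 members over 1 TPM, *Ptch1*, *Smo*, *Gli2* and *Gli3*, lay between -0.12 and -0.02 with SE between 0.07 and 0.16, where 0.00657% of 15212 genes were called, and 0 had an unadjusted p under 0.05. DESeq2 called 0 members in trachea (0.271% of all genes tested), somites at E10.5 (0.0969%) and E12.5 (0.0106%) and iBAT (0.0263%).

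Whether the effect of genotype differed between contexts was tested as an interaction, and edgeR called 0 members in the 5 comparisons made. For lung at E15.5 minus E12.5 (0.0267% of genes called) and for trachea minus lung (0.00502%) no member had an unadjusted p under 0.05. For somites at E12.5 minus E10.5 (0.0147%), *Smo* (-0.33 ± 0.12), *Gli2* (-0.39 ± 0.17) and *Gli3* (-0.30 ± 0.14) had an unadjusted p under 0.05 with adjusted p of 0.327, 0.336 and 0.345, and all 3 passed without wt library 3 of E10.5 (0.0168, 0.0313 and 0.0442), a fit in which 12.6% of 20486 genes were called.

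For diaphragm minus lung (0.73% of 19463 genes called), *Shh* was at -5.68 ± 1.30 (adjusted p = 0.069) and *Hhip* at -2.26 ± 0.55 (0.0935), and for diaphragm minus trachea (0.439% of 20289) at -5.70 ± 1.32 (0.075) and -2.41 ± 0.57 (0.085). With *Ptch1* and *Gli1* for lung and *Gli1* for trachea, 4 and 3 members had an unadjusted p under 0.05. DESeq2 called these 2 genes in both, where it called 1.61% and 1.86% of all genes tested. Without wt diaphragm library 4, edgeR called *Shh* (0.00257 and 0.00413) and *Hhip* (0.0157 and 0.0209) in both, where 1.14% and 0.881% of all genes were called. Without *Hoxa5*-/- diaphragm library 3 it called *Hhip* (0.0332 and 0.043), with 0.535% and 0.335% of all genes. Of the responding genes, *Foxf2* (-5.35, adjusted p = 0.00338) and *Foxf1* (-2.07, 0.0475) were called for diaphragm minus lung and *Foxf2* (-5.46, 0.00495) for diaphragm minus trachea. The comparisons share the diaphragm libraries, whose epithelial sums are given above.

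Over the 32 respiratory libraries the members fell into those that followed *Shh* and those that did not, which is a description over libraries that share tissue and depth. Pearson's r of log2(TPM + 1) with *Shh* was 0.972 for *Hhip*, 0.918 for *Gli1*, 0.912 for *Ptch1*, 0.837 for *Smo*, 0.594 for *Gli3* and 0.578 for *Gli2*. *Gli2* and *Gli3* were closest to each other (0.964). Among 21113 genes, those most like *Shh* were *Entpd3* (0.986), *Nkx2-1* (0.985) and *Tcf21* (0.982). Those most like *Hhip* were *Ap1m2* (0.992), *Esrp1* (0.991) and *St14* (0.989), those most like *Ptch1* were *Foxf1* (0.985), *Eva1a* (0.983) and *Cped1* (0.982), and those most like *Gli1* were *Ccnd1* (0.978), *Tes* (0.973) and *Slit3* (0.973). *Ihh* was most like *Mmd2* (0.924), *Trgc1* (0.859) and *Lcat* (0.853).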

How the data were processed

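RNA from 57 mouse embryo libraries was compared between tissues, stages and genotypes taken from the deposited sample labels. Per the labels, the authors' reads passed through Trim Galore 0.6.5, STAR 2.7.9a (genome GRCm39) and featureCounts 2.0.3, and the strand setting is not given in the sources used here. The deposited counts are whole numbers of exon reads per gene without normalization. The deposited TPM are the authors' conversion of those counts by exon length and library total.

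Counts were scaled by TMM and tested by edgeR 4.0.16 (quasi-likelihood, R 4.3.3), keeping genes whose TPM averaged 1 or more in either group. P-values were adjusted over all genes tested (Benjamini-Hochberg). Calls needed an adjusted p under 0.05 and, except for interactions, a fold change of at least 1.5. Alternatives were DESeq2 1.42.0, its size factors, other filters, no fold limit, 1 fit per table, a replicate block and leaving out libraries. Same-numbered wt trachea and lung libraries at E15.5 deviated together (r from 0.1 to 0.429 in 4 of 4 pairs), a pairing read from the data, and the block was run for them. Scripts were tested on simulated data. The rule for names took the 8 members, called list genes (up to 8 per comparison by adjusted p) and the 3 genes most like each of 5 members, and a few markers were named after their values were seen. Members and lists were chosen with earlier results of these data known.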

Additional observations from a re-analysis of the deposited data

Results flagged for a closer look

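In 6 of the groups of 4 or 5 libraries, 1 library stood apart from the others in a member's TPM by Dixon's test at 95%, which flags about 1 in 20 groups by chance, and 103 groups were tried. *Shh* was at 98.2 TPM in wt lung library 3 at E15.5, with the others between 75.4 and 76.9. In wt somites at E10.5 *Shh* was at 31.2 TPM in library 3, with the others between 19.3 and 20.4, and *Ihh* at 0.194 TPM in library 4, with the others between 0.454 and 0.495. *Gli1* was at 14.6 TPM in *Hoxa5*-/- diaphragm library 3, which also held the most epithelial and hepatocyte markers of its group, with the others between 4.39 and 6.11. In *Hoxa5*-/- iBAT, *Shh* was at 0.0441 TPM in library 1 from 1 count, with 0 counts in the others, and *Hhip* at 0.116 TPM in library 2, with the others between 0.348 and 0.388.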

How the results depend on the processing

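Values below are numbers of members called. In *Hoxa5*-/- over wt diaphragm the count of 0 became 2 with DESeq2, 1 with the replicate block and 4 with all libraries of the table in 1 fit. In the genotype effect of diaphragm minus lung, 0 became 2 with DESeq2, 2 with 1 fit and 1 with no filter on low values, and for diaphragm minus trachea 2 with DESeq2 and 2 with 1 fit. In wt somites the count of 2 became 7 without a fold change minimum and 3 with the replicate block, and 2 to 3 with libraries left out. Without that minimum at least 8957 of 19773 genes pass. With libraries left out the count ran from 0 to 1 in *Hoxa5*-/- diaphragm, 0 to 2 in each diaphragm interaction, 0 to 3 in the somite interaction, 2 to 3 in wt trachea over lung, 3 to 4 in diaphragm over trachea and 4 to 5 in diaphragm over lung. The causes were not tested. Of 2303 single values under alternatives, 2241 counted as the same, 45 became called, 3 lost the call, 14 moved and 0 of the called ones reversed. Values called in neither fit counted as the same when they moved by less than the spread. Values called in both with the same sign counted as the same whatever their shift. For example, *Shh* in wt diaphragm over lung went from -4.20 to -7.10 without diaphragm libraries 2 and 3. The replicate block changed no other count of members called. Over all genes it moved the calls between genotypes from 107 to 358 in diaphragm, 22 to 104 in lung at E15.5, 14 to 4 in lung at E12.5, 3 to 1 in trachea, 4 to 0 in somites at E10.5 and 1 to 2 in somites at E12.5 and in iBAT, and from 1 to 19 in the interaction of trachea minus lung. In none of the other comparisons was every same-numbered pair over 0.1 (lowest r of a pair -0.167 to 0.0728). Between genotypes, 3 of 4 pairs in diaphragm (highest r 0.445) and 4 of 5 in iBAT were, so a pairing there is not excluded. The main fits take no account of one. The leading number of the iBAT names as a block left 0 called. With Spearman's rho, 3 of the 15 most alike genes were the same. Low counts limit *Ihh* outside somites at E12.5 and *Shh* in diaphragm, somites at E12.5 and iBAT, and 4 libraries a group limit the rest.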
